A study of Homo sapiens with 12 samples.

Results

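The genes ATXN1, ROCK1, TBL1XR1, ACVR1, BMPR2, CYLD, INHBB, RAB5A, SMAD5 and TSC1 were followed as described or candidate targets of the microRNA miR-130a. They are 10 of the 11963 genes with a symbol of their own on the arrays, and they hold 21 of the 22277 probe sets. Genes entered by symbol, with all their probe sets. They were chosen by description as targets elsewhere and by their log2 values on the miR-130a and scramble arrays: ATXN1, ROCK1 and TBL1XR1 were known to be lower with miR-130a, and the other 7 were known to lie near 0. Their values from the miR-130a arrays are therefore given as a description, without a test.

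All 12 cultures were LNCaP cells, a human prostate cancer cell line that expresses androgen-dependent genes. Transfection was with miR-130a, with miR-203, with miR-205, or with a scramble microRNA as the control, and 3 arrays named as biological replicates were made per group. The cell line, the transfection and the array type were the same in the 4 groups. No dose, harvest time or microRNA arm is given in the sources used here, and results from a single cell line limit the model.

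MicroRNAs are short RNAs that guide Argonaute proteins to partly complementary sites, mostly in the 3′ ends of messenger RNAs. Pairing through the seed, the bases near the 5′ end of the microRNA, lowers translation of the target and often its RNA level. Each target gene can carry sites for many microRNAs, and a transfected microRNA reaches other genes through the proteins its targets control. An array measures only the RNA level.

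The mature sequences that RefSeq (GRCh38.p14) gives for the transfected microRNAs are shown because pairing with target sites runs mainly through the seed. Of 6 arms looked up, 5 were found (all but hsa-miR-130a-3p), and they have 5 different seeds. The only miR-130a seed shown is therefore that of hsa-miR-130a-5p. It need not be the seed of the transfected arm, or the seed through which the followed genes were described as targets. Sites for the seeds were not looked for in these genes. Capitals mark the seed, bases 2 to 8 from the 5′ end. All lie on the plus strand, hsa-miR-130a-5p at chr11:57641212-57641233, hsa-miR-203a-3p at chr14:104117469-104117490, hsa-miR-203a-5p at chr14:104117431-104117455, hsa-miR-205-5p at chr1:209432166-209432187 and hsa-miR-205-3p at chr1:209432203-209432223.
hsa-miR-130a-5p: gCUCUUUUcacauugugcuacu
hsa-miR-203a-3p: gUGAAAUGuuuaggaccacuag
hsa-miR-203a-5p: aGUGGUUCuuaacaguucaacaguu
hsa-miR-205-5p: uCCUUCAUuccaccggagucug
hsa-miR-205-3p: gAUUUCAGuggagugaaguuc

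The values are log2 intensities that run from 2.36 to 13.95, with array medians of 2.76 to 2.78. Of 8 luminal prostate markers, 6 were analysed and all 6 lay above the array median on all 12 arrays. The 2 basal, 3 leukocyte and 3 endothelial markers analysed lay above it on none, and among 4 fibroblast and smooth muscle markers only COL1A1 did (2.90 to 3.46 on 12 arrays). KLK3, the prostate-specific antigen gene, had group means of 11.17 with miR-130a, 10.21 with miR-203, 12.01 with miR-205 and 11.45 with scramble. IFIT1, an interferon-induced gene, had means of 11.60, 9.67 and 5.71 with miR-130a, miR-203 and miR-205, against 4.86 with scramble. The part of that difference in the results on the targets was not tested. In RNA from whole cultures, fewer cells of a kind and less RNA per cell cannot be told apart.

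ROCK1 encodes a kinase that drives contraction of actin and myosin, and it was lowest with miR-130a and highest with miR-203. Its brighter probe set, 213044_at, read 6.09, 5.87 and 6.02 on the miR-130a arrays, 7.25, 7.25 and 7.39 on the miR-203 arrays, 6.93, 6.72 and 6.88 on the miR-205 arrays and 6.83, 6.81 and 6.71 on the scramble arrays. All 3 miR-130a arrays lay below every other array, all 3 miR-203 arrays lay above every other array, and the miR-205 and scramble arrays overlapped. The difference of miR-130a from scramble was -0.79 ± 0.08 log2 (SE of the fit, 3 arrays per group), a linear level of 57.8% of scramble. From miR-203 it was -1.30 ± 0.08 and from miR-205 -0.85 ± 0.08.

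With miR-203, ROCK1 rose by 0.51 ± 0.08 log2 against scramble (limma, adjusted p = 3.77e-04), to 143% of the scramble level. Against miR-205 it was 0.46 ± 0.08 higher with miR-203 (limma, adjusted p = 8.32e-04). The miR-205 arrays differed from scramble by 0.06 log2 (95% interval -0.12 to 0.24, adjusted p = 0.67). ROCK1 was thus lower on the miR-130a arrays, it rose with miR-203, and with miR-205 the interval includes no difference.

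The dimmer ROCK1 probe set, 214578_s_at, read 3.82, 3.85 and 3.63 with miR-130a, 4.94, 4.67 and 4.50 with miR-203, 4.34, 4.27 and 4.27 with miR-205 and 4.37, 4.87 and 4.42 with scramble. Its miR-130a arrays were again the 3 lowest, at a difference of -0.79 ± 0.13 from scramble. Its miR-203 difference from scramble was 0.15 (95% interval -0.14 to 0.44, adjusted p = 0.42), and the miR-203 and scramble arrays overlapped. Its miR-205 arrays were all below the scramble arrays, at a difference of -0.26 (adjusted p = 0.198) that did not pass the test. The difference of miR-203 over miR-205 was 0.41 (adjusted p = 0.0319), as called on the brighter probe set. With the mean of both probe sets, ROCK1 was 0.33 above scramble with miR-203 (adjusted p = 0.00567) and at -0.099 from it with miR-205 (adjusted p = 0.39).

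ATXN1 encodes ataxin-1, a repressor of transcription that binds the DNA-binding protein capicua and whose expanded form causes a spinocerebellar ataxia. It was lower with miR-130a and also with miR-205. Probe set 203232_s_at read 2.78, 2.50 and 2.52 on the miR-130a arrays, 3.88, 3.35 and 3.30 on the miR-203 arrays, 3.15, 2.97 and 2.85 on the miR-205 arrays and 3.71, 3.74 and 3.72 on the scramble arrays. The miR-130a arrays were the 3 lowest of the 12, the miR-205 arrays came next without overlap, and the miR-203 arrays had values both above and below the scramble arrays.

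With miR-130a, ATXN1 differed from scramble by -1.13 ± 0.14 log2, a linear level of 45.8%, but only 1 of the 3 miR-130a arrays lay above the array median. The remaining arrays are near the floor of the scale, where a fall can be read too small. The difference from miR-203 was -0.91 ± 0.14 and that from miR-205 -0.39 ± 0.14. ATXN1 fell by 0.74 ± 0.14 log2 with miR-205 against scramble (limma, adjusted p = 0.00151), to 59.9% of scramble. That value uses the scramble arrays on which ATXN1 was chosen.

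With miR-203, ATXN1 differed from scramble by -0.21 log2 (95% interval -0.51 to 0.08, adjusted p = 0.246), which did not pass the test. That value rests on miR-203 replicate 1, the highest ATXN1 reading of all arrays: without it the difference was -0.40 (adjusted p = 0.012), and with array weights it was -0.33 (adjusted p = 0.0396). Between the microRNAs, ATXN1 was 0.52 ± 0.14 higher with miR-203 than with miR-205 (adjusted p = 0.00911). That value was 0.34 without miR-203 replicate 1, and its adjusted p was 0.0509 when only the 6 arrays of these groups were fitted. The other ATXN1 probe set, 203231_s_at, lay above the array median on 1 array, a scramble array at 2.88, and was not tested. With the mean of both probe sets the ATXN1 differences were -0.67 for miR-130a and -0.47 (adjusted p = 0.00195) for miR-205 against scramble, and 0.31 (adjusted p = 0.0169) for miR-203 against miR-205.

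TBL1XR1 encodes a subunit of the nuclear receptor corepressor complex that helps exchange corepressors for coactivators, and it was lower with miR-130a and with miR-203. Its single probe set, 221428_s_at, read 4.97, 5.02 and 4.90 on the miR-130a arrays, 5.51, 5.72 and 5.75 on the miR-203 arrays, 6.42, 6.70 and 6.47 on the miR-205 arrays and 6.01, 6.58 and 6.39 on the scramble arrays. The miR-130a arrays were the 3 lowest, the miR-203 arrays were the next 3, and the miR-205 and scramble arrays overlapped above them. With miR-130a, TBL1XR1 differed from scramble by -1.36 ± 0.13 log2, a linear level of 39.0%, which was the lowest difference among the 10 genes.

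TBL1XR1 fell by 0.66 ± 0.13 log2 with miR-203 against scramble (limma, adjusted p = 0.00155), to 63.2% of scramble. The difference of miR-203 from miR-205 was -0.87 ± 0.13 (adjusted p = 1.83e-04), a value in which no miR-130a and no scramble array enters other than through the shared estimate of the spread. With miR-205 it was 0.21 above scramble (95% interval -0.07 to 0.49, adjusted p = 0.273). The miR-130a difference was -0.70 ± 0.13 from miR-203 and -1.57 ± 0.13 from miR-205. Lower TBL1XR1 was thus not limited to the miR-130a arrays, which lay below the miR-203 arrays.

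**Figure D1:**
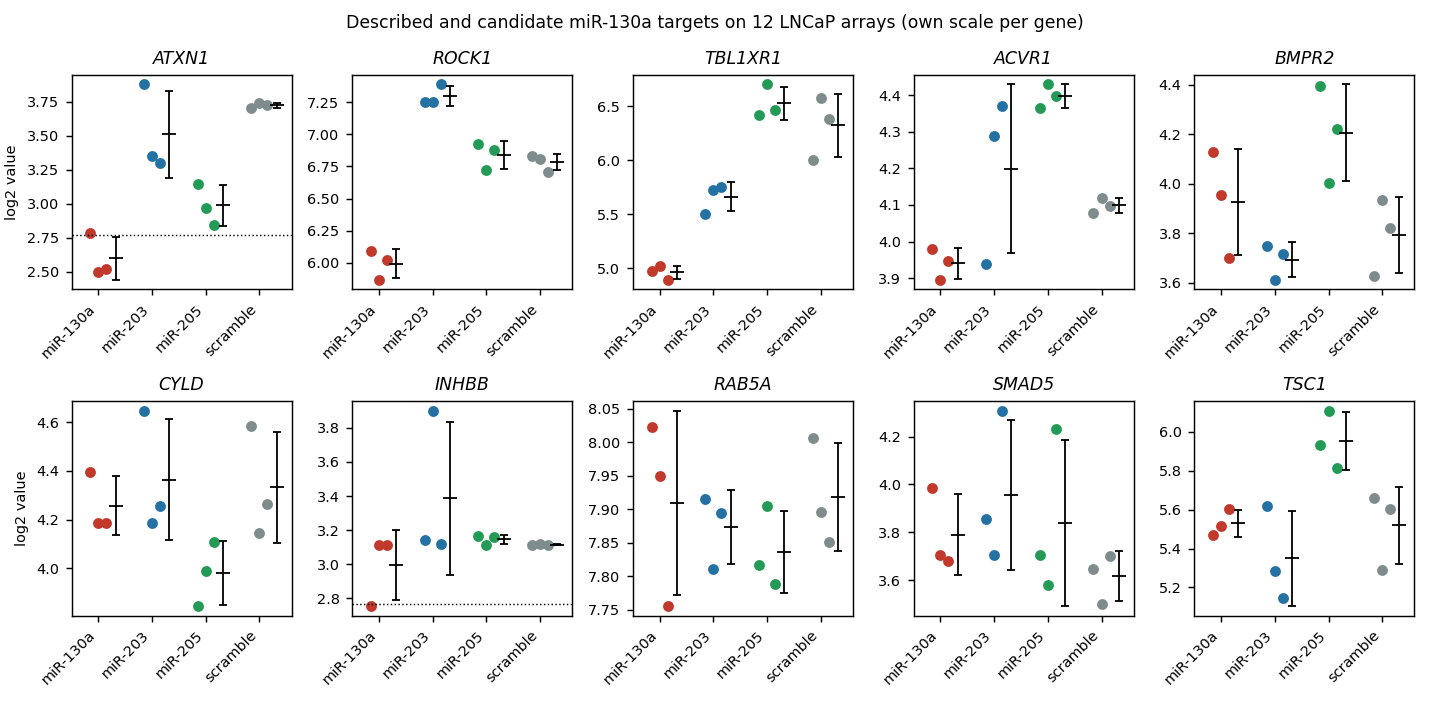
Log2 value of each of the 10 genes on each of the 12 arrays (points, from left miR-130a, miR-203, miR-205 and scramble, replicates 1 to 3 in each), with the group mean ± SD beside them, each panel on its own scale and the level of the array medians dotted where it is in range. ATXN1, ROCK1 and TBL1XR1 have their 3 lowest values on the miR-130a arrays, and ACVR1 has 1 miR-203 array among its lowest.

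The other 7 genes gave smaller differences of miR-130a from scramble. On their brightest probe sets these ran from -0.16 to 0.17 log2, and 6 of the 7, all but ACVR1, overlapped between these groups. Over all 10 genes, each by its brightest probe set, 4 had every miR-130a array below every scramble array (ATXN1, ROCK1, TBL1XR1 and ACVR1) and 0 had every one above. On dimmer tested probe sets, every miR-130a array lay above every scramble array for SMAD5 (205188_s_at, 0.23) and CYLD (221905_at, 0.16). The scramble values of that SMAD5 probe set were close to the array medians. For ROCK1 (214578_s_at, -0.79) every one lay below, and the remaining dimmer tested probe sets overlapped. Among all genes tested, 19.9% had all miR-130a arrays below all scramble arrays, and since the choice of the 10 genes used this comparison, nothing is read from their count. Of the 3 genes taken as lower, ROCK1 had the smallest difference, -0.79, and next to it among the rest came ACVR1 with -0.16. The genes were chosen with these differences known, so nothing is read from this gap either.

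Of the 7, 4 belong to the transforming growth factor beta superfamily, whose ligands bind pairs of receptors that phosphorylate SMAD proteins. INHBB encodes the beta B subunit of inhibin B and activin B, secreted ligands. It read 2.76, 3.11 and 3.11 with miR-130a, 3.14, 3.90 and 3.12 with miR-203, 3.17, 3.11 and 3.16 with miR-205 and 3.11, 3.12 and 3.11 with scramble. All arrays but 2 lay close together: 1 miR-130a array was low and 1 miR-203 array was high. INHBB did not pass the test with miR-203 (0.27, 95% interval -0.09 to 0.64, adjusted p = 0.234) or with miR-205 (0.03, -0.33 to 0.39, adjusted p = 0.928) against scramble. Without the high array, miR-203 replicate 2, the miR-203 value was 0.013. Array weights gave 0.58 for miR-203 against scramble (adjusted p = 0.0163) and 0.55 against miR-205 (adjusted p = 0.015). That same array had a weight of 2.84, against 0.40 and 0.60 for miR-203 replicates 1 and 3. The weighted values therefore rest on the 1 high array.

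ACVR1 encodes a type I receptor for bone morphogenetic proteins (BMPs) and activins. It read 3.98, 3.90 and 3.95 with miR-130a, 3.94, 4.29 and 4.37 with miR-203, 4.36, 4.43 and 4.40 with miR-205 and 4.08, 4.12 and 4.10 with scramble. The miR-205 arrays were all above the scramble arrays, and ACVR1 rose by 0.30 ± 0.10 with miR-205 (limma, adjusted p = 0.0348). That call was lost when any 1 of the 3 miR-205 or 3 scramble arrays was left out, with differences of 0.28 to 0.31 and adjusted p up to 0.0867. The miR-203 difference of 0.10 (95% interval -0.11 to 0.31, adjusted p = 0.439) rests on miR-203 replicate 1, and was 0.23 (adjusted p = 0.0199) without it. The difference of miR-203 from miR-205 was -0.20 (adjusted p = 0.121), and -0.28 without miR-203 replicate 3 (adjusted p = 0.0344).

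BMPR2 encodes the type II receptor that pairs with ACVR1 and related receptors. Probe set 209920_at read 4.13, 3.95 and 3.70 with miR-130a, 3.75, 3.61 and 3.72 with miR-203, 4.39, 4.0 and 4.22 with miR-205 and 3.63, 3.93 and 3.82 with scramble. The gene was highest with miR-205, without overlap with miR-203 or scramble. BMPR2 rose by 0.41 ± 0.12 with miR-205 against scramble (limma, adjusted p = 0.0246), a call that was lost without miR-205 replicate 1 (0.32, adjusted p = 0.109) or 3 (0.40, 0.0681), or without scramble replicate 1 (0.33, 0.0917) or 3 (0.43, 0.0551). The difference of miR-203 from miR-205 was -0.51 ± 0.12 (adjusted p = 0.0051). The miR-203 difference from scramble was -0.10 (95% interval -0.37 to 0.16, adjusted p = 0.553). The second probe set, 210214_s_at, had differences of the same sign, 0.19 for miR-205 against scramble (adjusted p = 0.111) and -0.26 for miR-203 against miR-205 (adjusted p = 0.0255).

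SMAD5 encodes a signal transducer that BMP receptors phosphorylate. Probe set 205187_at read 3.99, 3.71 and 3.68 with miR-130a, 3.85, 3.71 and 4.31 with miR-203, 3.71, 3.58 and 4.23 with miR-205 and 3.65, 3.50 and 3.70 with scramble. The miR-203 arrays lay above the scramble arrays, and the spread within the miR-203 and miR-205 groups was wide. SMAD5 did not pass the test with miR-203 (0.34, 95% interval -0.03 to 0.71, adjusted p = 0.144), with miR-205 (0.22, -0.15 to 0.60, adjusted p = 0.388) or between them (0.12, adjusted p = 0.636). The dimmer probe set, 205188_s_at, was 0.23 higher with miR-130a than with scramble. Its scramble arrays read 2.78, 2.77 and 2.78, close to the array medians of 2.76 to 2.78. Of these 4 genes ACVR1 had the lowest miR-130a difference, -0.16.

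TSC1 encodes hamartin, which with tuberin (TSC2) restrains the growth kinase mTOR. It read 5.47, 5.51 and 5.61 with miR-130a, 5.62, 5.28 and 5.15 with miR-203, 5.93, 6.11 and 5.82 with miR-205 and 5.66, 5.29 and 5.61 with scramble. The miR-205 arrays were the 3 highest of the 12, and the other groups overlapped. TSC1 rose by 0.43 ± 0.13 with miR-205 against scramble (limma, adjusted p = 0.0238). That call was lost without miR-205 replicate 1 (0.44, adjusted p = 0.058) or 2 (0.36, 0.0901) and without scramble replicate 2 (0.32, 0.101). Between the microRNAs, miR-203 differed from miR-205 by -0.60 ± 0.13 (adjusted p = 0.00244), and the miR-203 difference from scramble was -0.17 (95% interval -0.45 to 0.11, adjusted p = 0.327).

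CYLD encodes a deubiquitinase that limits NF-kB signalling. Probe set 221903_s_at read 4.40, 4.19 and 4.19 with miR-130a, 4.65, 4.19 and 4.26 with miR-203, 3.85, 3.99 and 4.11 with miR-205 and 4.59, 4.15 and 4.27 with scramble. The miR-205 arrays were the 3 lowest. CYLD did not pass the test with miR-203 (0.03, 95% interval -0.26 to 0.32, adjusted p = 0.881) or miR-205 (-0.35, -0.64 to -0.06, adjusted p = 0.0739) against scramble, although the miR-205 value passed without miR-203 replicate 1 (adjusted p = 0.0371) or scramble replicate 2 (-0.44, 0.0482). It was 0.38 ± 0.14 higher with miR-203 than with miR-205 (adjusted p = 0.0399). That call was lost without miR-130a replicate 2 or 3, miR-203 replicate 1 (0.24, adjusted p = 0.167), miR-205 replicate 1 or 2, or scramble replicate 3, and with array weights, no brightness filter or only the arrays of these groups.

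Other CYLD probe sets did not repeat that difference. Of the 7, 213295_at and 221905_at were also bright enough for the test, and miR-203 minus miR-205 was -0.11 (adjusted p = 0.406) and -0.27 (adjusted p = 0.139) on them. With the mean of all CYLD probe sets it was -0.015 (adjusted p = 0.868). The remaining 4, 214272_at, 222142_at, 39582_at and 60084_at, lay above the array median on 0 arrays and were not tested.

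RAB5A encodes a small GTPase of early endosomes, and its group means had the smallest span of the 10 genes. Probe set 209089_at read 8.02, 7.95 and 7.76 with miR-130a, 7.92, 7.81 and 7.89 with miR-203, 7.82, 7.91 and 7.79 with miR-205 and 8.01, 7.90 and 7.85 with scramble. All 4 groups overlapped, and the span was 0.081 log2. The differences from scramble were -0.04 with miR-203 (95% interval -0.22 to 0.13, adjusted p = 0.707) and -0.08 with miR-205 (-0.26 to 0.09, adjusted p = 0.516). On this probe set, a change beyond 0.26 in either direction lies outside both intervals. The dimmer probe set, 206113_s_at, also overlapped in every comparison. Its differences from scramble were 0.09 with miR-203 (95% interval -0.16 to 0.34) and 0.12 with miR-205 (-0.13 to 0.37), so its intervals include a rise beyond 0.26.

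**Figure D2:**
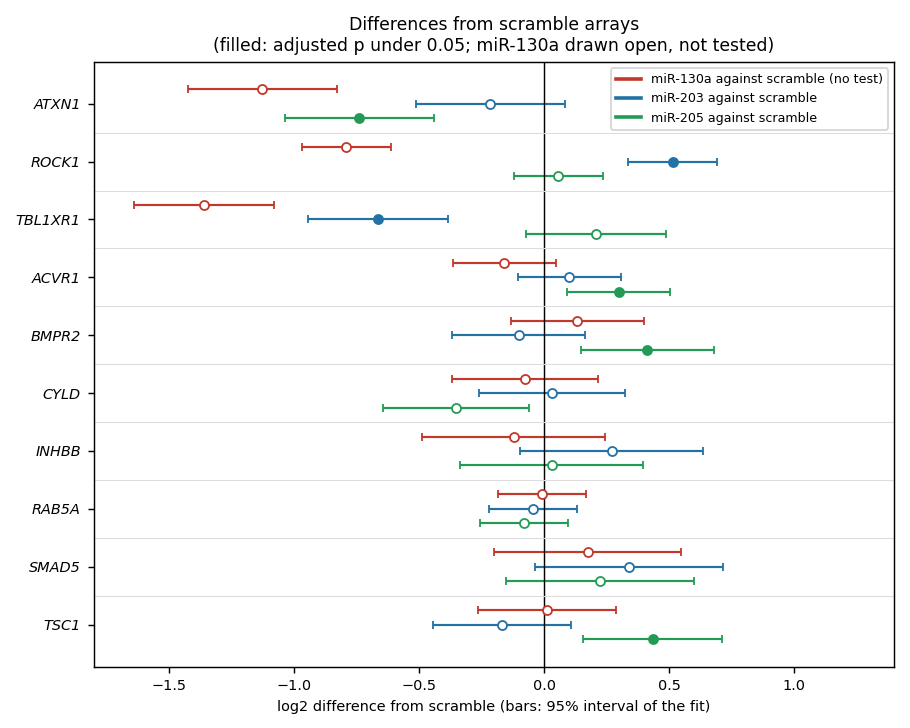
Log2 difference of each gene from scramble (points) for miR-130a, miR-203 and miR-205, with the 95% interval of the fit over 12 arrays (bars). Filled points passed the test, and the miR-130a points are open because they were not tested. ROCK1 has its miR-130a and miR-203 points on opposite sides of 0, ATXN1 is lower with miR-205 and TBL1XR1 with miR-203.

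All 10 genes passed the brightness filter with their brightest probe set, as did 16 of their 21 probe sets. Each test was a limma comparison adjusted over 6821 genes, and 3 comparisons were tested for these genes. Against scramble, miR-203 had 1 of 10 higher (ROCK1), 1 lower (TBL1XR1) and 8 that did not pass, which is 20% called. Of all genes, 36.2% were called, 17.3% as higher and 18.9% as lower. With miR-205, 3 were higher (ACVR1, BMPR2 and TSC1), 1 was lower (ATXN1) and 6 did not pass, which is 40% called. Of all genes, 26.1% were called, 11.3% as higher and 14.8% as lower. Both comparisons use the scramble arrays that also helped choose the genes. The median differences were -0.0064 and 0.13 log2 for the 10 genes, against 0.0061 and -0.0038 for all genes.

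Between miR-203 and miR-205, 3 genes were higher with miR-203 (ATXN1, ROCK1 and CYLD), 3 were lower (TBL1XR1, BMPR2 and TSC1) and 4 did not pass. Of all genes, 37.9% were called, 21% as higher and 16.9% as lower. The median difference was 0.08 for the 10 genes and 0.03 for all genes. The ROCK1 and TBL1XR1 calls of miR-203 against scramble and the ATXN1 call of miR-205 against scramble were kept under all 20 alternative settings. Without the brightness filter, ATXN1 was the 1 gene called with miR-205, and with only the arrays of these groups 2 were called. The count for miR-205 against scramble also moved with single arrays. It was 1 without miR-205 replicate 1, 2 without miR-205 replicate 2 or 3 or scramble replicate 1 or 3, 3 without scramble replicate 2 and 5 without miR-203 replicate 1. For miR-203 against scramble it was 4 without miR-203 replicate 1 and 2 without each other array.

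**Figure D3:**
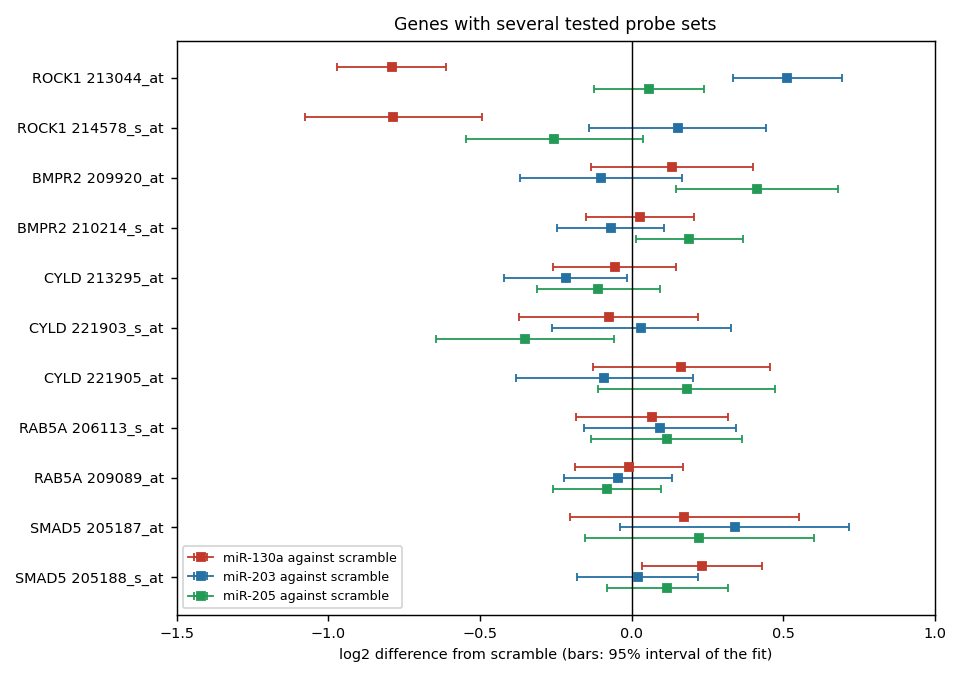
Log2 difference from scramble (squares) with 95% intervals (bars) for the probe sets of the 5 genes that have several tested ones, 1 row per probe set and 1 colour per microRNA. Both ROCK1 probe sets lie at -0.79 with miR-130a, while the CYLD probe sets differ in sign with miR-203 and with miR-205.

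The order of the group means differed from gene to gene. For ATXN1 the order was miR-130a, miR-205, miR-203 and scramble, and miR-203 and scramble overlapped. For ROCK1 it was miR-130a, scramble, miR-205 and miR-203, and scramble and miR-205 overlapped. For TBL1XR1 it was miR-130a, miR-203, scramble and miR-205, and scramble and miR-205 overlapped.

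The genes whose 12 values lay closest to each of the 3 lower genes were found by the root mean square distance over the arrays, after each gene was centred on its scramble mean. They were picked for likeness on these same arrays. Their small distances and similar differences follow from that choice, and nothing is read from them. Nearest to ROCK1 were CTSA, a lysosomal carboxypeptidase (0.119 log2), PREP, a prolyl peptidase (0.136), and HS3ST1, a heparan sulfate sulfotransferase (0.143), where the median distance over all genes was 0.518. CTSA differed from scramble by -0.73 with miR-130a, 0.46 with miR-203 and -0.01 with miR-205. Nearest to ATXN1 were SQSTM1, an autophagy receptor (0.217), GPNMB, a membrane glycoprotein (0.224), and SARS1, a transfer RNA synthetase (0.228), with a median of 0.723. Nearest to TBL1XR1 were PRNP, the prion protein gene (0.261), CDK19, a kinase of the mediator complex (0.275), and TCTA (0.29), with a median of 0.803. PRNP differed from scramble by -1.15 with miR-130a, -0.53 with miR-203 and -0.08 with miR-205.

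TBL1X, the paralog of TBL1XR1, differed from scramble by -0.07, -0.17 and 0.12 with miR-130a, miR-203 and miR-205, and none of these passed (adjusted p = 0.682, 0.213 and 0.419). RAB5B did not pass in any comparison with scramble, while RAB5C fell by 0.65 ± 0.10 with miR-203 (adjusted p = 3e-04) and by 1.04 ± 0.10 with miR-205 (adjusted p = 1.32e-05). TSC2, the partner of TSC1, rose by 0.52 ± 0.12 with miR-205 (adjusted p = 0.00531, and 0.26 with 0.0253 over the mean of its probe sets) and differed from scramble by -0.08 with miR-130a (adjusted p = 0.663).

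Genes that work with the 10 were listed by pathway: 108 were listed, 91 were on the arrays and 61 were tested. With miR-130a, 9 were higher and 6 lower than scramble (24.6%), where 23.6% of all genes were called, 12% as higher and 11.6% as lower. With miR-203, 8 were higher and 10 lower (29.5%, against 36.2% of all genes), and with miR-205, 11 were higher and 11 lower (36.1%, against 26.1%). Without miR-205 replicate 1, the last of these had 14 calls. The medians over the 61 were -0.01, -0.04 and 0.09 log2 for miR-130a, miR-203 and miR-205, against -0.0085, 0.0061 and -0.0038 for all genes.

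Among 19 tested genes of the transforming growth factor beta and BMP pathway, 2 were higher and 1 lower with miR-130a, 4 and 2 with miR-203, and 3 and 2 with miR-205. These are 15.8%, 31.6% and 26.3% called, against 23.6%, 36.2% and 26.1% of all genes. Several calls were lost under other settings, most with single arrays left out: with miR-205 SMURF2 in 13 of 20, SMAD1 in 12, BAMBI in 7 and ID2 in 2, and with miR-203 ID2 in 10 and ACVR1B in 7. GDF15, a stress-induced ligand of the superfamily, fell by 0.96 ± 0.10 with miR-130a (adjusted p = 2.39e-05), by 0.73 ± 0.10 with miR-203 (1.54e-04) and by 1.45 ± 0.10 with miR-205 (9.96e-07). With the mean of its probe sets the differences were -0.48, -0.36 and -0.72, and all 3 still passed. BAMBI, a decoy receptor, read 7.50, 7.69 and 7.59 with miR-130a and 8.74, 8.74 and 8.66 with miR-203, against 6.84, 6.80 and 7.01 with scramble. It rose by 0.71 ± 0.09 with miR-130a (adjusted p = 8.69e-05) and by 1.83 ± 0.09 with miR-203 (adjusted p = 1.63e-08). SMAD2, which transduces activin signals, rose by 0.72 ± 0.10 with miR-203 (adjusted p = 1.77e-04) and differed by 0.01 with miR-130a (adjusted p = 0.976). TGFBR3, a coreceptor, rose by 1.06 ± 0.12 with miR-203 (adjusted p = 2.85e-05), with 1 of its 3 scramble arrays above the array median.

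Of 5 tested corepressor genes, 2 were higher and 0 lower with miR-130a, 0 and 1 with miR-203, and 1 and 1 with miR-205. These are 40%, 20% and 40% called, against 23.6%, 36.2% and 26.1% of all genes. HDAC3, the deacetylase of the complex that holds TBL1XR1, rose by 0.59 ± 0.09 with miR-130a (adjusted p = 5.2e-04), and CORO2A, another subunit, by 0.47 ± 0.07 (adjusted p = 3.27e-04).

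Only 2 tested genes were listed with ataxin-1. CIC, which encodes capicua, did not pass with miR-130a (-0.09, adjusted p = 0.527), miR-203 (-0.09, 0.457) or miR-205 (-0.05, 0.738). ETV1, a transcription factor gene that capicua represses, was -0.16 from scramble with miR-130a (adjusted p = 0.352) and rose by 0.62 ± 0.11 with miR-205 (adjusted p = 0.00146). With miR-203 it fell by 0.53 ± 0.11 (adjusted p = 0.00282), which with the mean of its probe sets became -0.13 (adjusted p = 0.0929).

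Of 8 tested genes of the CYLD and NF-kB list, 2 were higher and 1 lower with miR-130a, 0 and 0 with miR-203, and 1 and 1 with miR-205. The shares called were 37.5%, 0% and 25%, against 23.6%, 36.2% and 26.1% of all genes. TNFAIP3, a deubiquitinase induced by NF-kB, read 4.80, 4.47 and 4.29 with miR-130a and stayed at or under the median of each scramble array. It was thus at least 3.38-fold higher (limma, adjusted p = 7.26e-08). TNFAIP3 lay above the array median on 3 miR-130a, 2 miR-203, 0 miR-205 and 0 scramble arrays. It therefore passed the brightness filter only through the group in which it was high. NFKBIA, an NF-kB inhibitor that NF-kB induces, rose by 0.79 ± 0.11 with miR-130a (adjusted p = 1.97e-04). IFIT1 was also highest on these arrays, and its part in these differences was not tested. Of 11 tested genes around RAB5, 1 was higher and 0 lower with miR-130a, 2 and 2 with miR-203, and 1 and 2 with miR-205. For this list 9.09%, 36.4% and 27.3% were called, against the same shares of all genes. The calls of NFKBIA with miR-205 and of RAB7A and RABEP1 with miR-203 were lost in 8, 7 and 3 of 20 settings, as was that of the corepressor gene GPS2 with miR-205 in 5.

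In the list around TSC and mTOR, 1 of 8 tested genes was higher and 3 lower with miR-130a, 1 and 2 with miR-203, and 2 and 4 with miR-205. The shares called were 50%, 37.5% and 75%, against 23.6%, 36.2% and 26.1% of all genes. EIF4EBP1, a translation repressor that mTOR inactivates, fell by 0.82 ± 0.09 with miR-130a (adjusted p = 1.96e-05), by 0.63 ± 0.09 with miR-203 (1.13e-04) and by 1.59 ± 0.09 with miR-205 (2.35e-07). DDIT4, a stress-induced inhibitor of mTOR, fell by 0.90 ± 0.09 with miR-130a (adjusted p = 9.84e-06), by 0.41 ± 0.09 with miR-203 (0.00288) and by 0.45 ± 0.09 with miR-205 (0.00219). MLST8, an mTOR subunit, fell by 0.59 ± 0.10 with miR-130a (adjusted p = 0.00108) and by 1.17 ± 0.10 with miR-205 (5.79e-06). MTOR, the kinase itself, read 5.05, 4.90 and 4.84 with miR-130a, against 4.51, 4.28 and 4.21 with scramble. It rose by 0.60 ± 0.09 with miR-130a (adjusted p = 5.36e-04) and by 0.36 ± 0.09 with miR-205 (adjusted p = 0.0135), and the miR-205 call was lost without miR-205 replicate 1 or 3 or scramble replicate 3 and with only the arrays of the 2 groups. With miR-203 it did not pass (0.20, adjusted p = 0.108). These comparisons share the scramble arrays.

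A further 24 genes were listed as described targets of miR-130a. Of these, 19 were on the arrays and 4 were bright enough for the test: ATG2B, DICER1, IRF1 and SMAD4. ATG2B, a lipid transfer protein of autophagosomes, read 3.46, 3.39 and 3.21 with miR-130a, 4.56, 4.61 and 5.18 with miR-203, 4.03, 3.78 and 3.94 with miR-205 and 4.19, 4.26 and 3.94 with scramble. Its miR-130a arrays were the 3 lowest and its miR-203 arrays the 3 highest. ATG2B fell by 0.77 ± 0.15 with miR-130a (adjusted p = 0.00221) and rose by 0.66 ± 0.15 with miR-203 (adjusted p = 0.00398).

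DICER1, which encodes the RNase that releases mature microRNAs, rose by 0.85 ± 0.12 with miR-130a (adjusted p = 2.19e-04), by 0.54 ± 0.12 with miR-203 (0.00338) and by 0.76 ± 0.12 with miR-205 (4.39e-04). Over the mean of its probe sets these were 0.40, 0.24 and 0.38, and all 3 still passed. IRF1, a transcription factor gene induced by interferon, rose by 1.10 ± 0.11 with miR-130a (adjusted p = 8.37e-06) and by 0.52 ± 0.11 with miR-203 (0.00201). IFIT1 was also highest in these 2 groups, and its part in the IRF1 differences was not tested. SMAD4, the common partner of receptor-activated SMADs, did not pass with miR-130a (0.04, 95% interval -0.21 to 0.28, adjusted p = 0.856), miR-203 (0.22, 0.149) or miR-205 (-0.13, 0.457). Of the 4, 1 was lower and 2 were higher with miR-130a, 3 were higher with miR-203 and 1 was higher with miR-205. These are 75%, 75% and 25% called, against 23.6%, 36.2% and 26.1% of all genes. With only 4 of 24 listed genes tested, nothing is read from these counts.

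**Figure D4:**
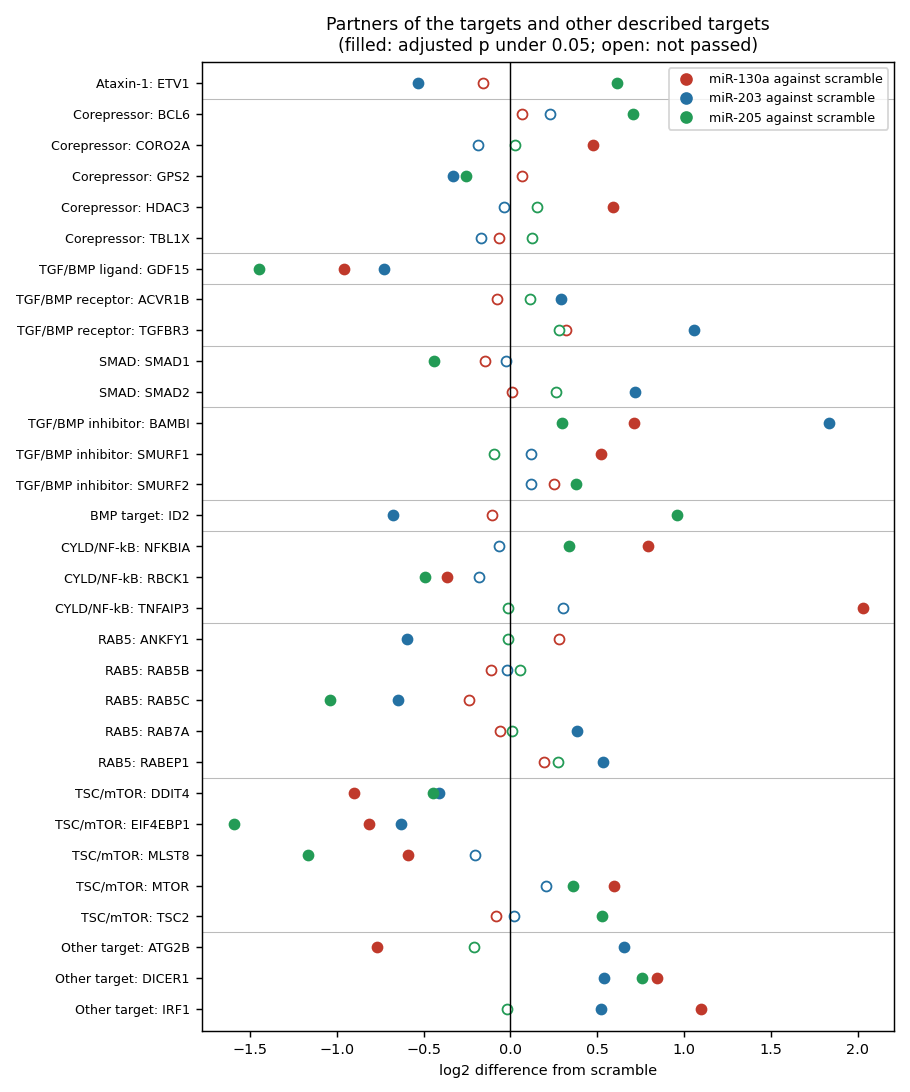
Log2 difference from scramble for genes that work with the 10 targets and for other described targets (points), by microRNA, filled where limma's adjusted p was under 0.05. GDF15, DDIT4 and EIF4EBP1 lie below 0 with every microRNA, ATG2B lies below 0 with miR-130a and above it with miR-203, and the TNFAIP3 point is the measured difference from scramble arrays at background.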

How the data were processed

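Total RNA of 12 LNCaP cultures was measured on 1-colour arrays with a biotin label, per the labels. The authors deposited 1 table of log2 values for 22277 probe sets. Tools named per the submitters' processing notes were R 2.9.0, RMA and limma. Their roles and the background correction are not given in these sources. A probe set summary adds probes along a transcript, so probe sets of 1 gene can measure different transcript ends, and levels were compared only within a probe set.

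Names came from the platform annotation, 19070 probe sets with 1 symbol, 1043 with several and 2164 with none. Each of 11963 genes was represented by its probe set of highest mean over the 12 arrays, and tested if that lay above the array median on at least 3 arrays (6821 genes). Group means were fitted with limma 3.58.1 (R 4.3.3, lmFit and eBayes) over all 12 arrays, two-sided, with Benjamini-Hochberg adjustment over all genes tested and a threshold of 0.05. Single probe sets were fitted over the 10067 that passed the same filter, each with its own adjustment. A difference is the first-named group less the second, with the SE of the fit and a 95% interval. A gene above the median on none of a group's arrays is given as a bound against the array median. The procedure was also run on simulated data with independent noise on each array and no floor. That run does not cover arrays that deviate together or values near the floor. The p-values cover only the spread between cultures, and 3 arrays per group limit the precision.

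Members, pathway lists and tests were chosen with earlier results of these data known. The rule for named genes took all members, up to 4 called genes of each list by size of difference, the closest relatives, the 3 nearest genes to ATXN1, ROCK1 and TBL1XR1, and IFIT1 and KLK3. The text names a part of these, and CIC, SMAD4 and COL1A1 were added for context. One pathway list, counted in the totals, is not reported here on its own. Arrays of 1 group correlated over the genes tested with r of 0.992 to 0.997, arrays of different groups with 0.964 to 0.986, and 0 columns were identical. The 3′ minus 5′ difference, a sign of RNA quality, was 2.18 to 2.66 log2 for ACTB and 0.56 to 0.90 for GAPDH over the arrays. Same-numbered arrays of miR-203 and miR-205 deviated together (correlations of 0.105 to 0.313 in 3 pairs), while in comparisons with scramble the correlations ran from -0.11 to 0.04. The tests given above did not pair the arrays. Replicate numbers entered only in the replicate block, which is 1 of the alternatives. Alternatives were other scalings, filters and probe set choices, array weights, fits of 2 groups, the replicate block and each array left out.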

Additional observations from a re-analysis of the deposited data

How the results depend on the processing

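Across 20 alternatives per result, counts moved with single arrays. Members called with miR-205 against scramble numbered 1 with no filter on dim genes, 2 with only the arrays of the 2 groups, and 1 to 5 with 1 array left out. With miR-203 against scramble they numbered 4 with array weights and 2 to 4 with 1 array left out, and pathway partners with miR-205 numbered 14 to 22 with 1 array left out. The replicate block gave 2, 4 and 6 members called for miR-203 against scramble, miR-205 against scramble and miR-203 against miR-205, and changed no member's call. It called 1631, 2486 and 1751 genes against scramble with miR-130a, miR-203 and miR-205. Reversed values included the called CYLD difference between microRNAs. RAB5A became 0.093 (miR-203 against scramble), 0.12 (miR-205 against scramble) and -0.023 (miR-203 against miR-205) on its most variable probe set. With the mean of probe sets, ROCK1 with miR-205 became -0.099, CYLD -0.058 with miR-203 and -0.015 between microRNAs, and RAB5A 0.024 and 0.017 with miR-203 and miR-205. With array weights, CYLD with miR-203 became -0.056 and SMAD5 between microRNAs -0.078. With 1 array left out, CYLD with miR-203 ran from -0.11 (without miR-203 replicate 1) to 0.16, INHBB between microRNAs from -0.017 (without miR-203 replicate 2) to 0.38, SMAD5 between microRNAs from -0.059 (without miR-203 replicate 3) to 0.31, and RAB5A with miR-203 from -0.078 to 0.00025 (without scramble replicate 1). The cause was not tested. Scaling moved no median of all genes by over 0.1. Low signal limits ATXN1, INHBB, the dimmer SMAD5 probe set and 5 untested probe sets, where a fall can be compressed.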
